A study of Mus musculus with 2 samples.

Results

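The 3 microRNA genes Mir143, Mir145a and Mir21a were described among 2202 annotated microRNA genes in mouse gastrocnemius, the large superficial calf muscle. Their rows were found by gene name and by no measured value, although the genes were proposed with earlier results of these data known. The small RNA libraries came from 14-day-old female mice of strain B6CASTF1/J (F1 hybrids between the strains C57BL/6J and CAST/EiJ), and the labels select RNA under 30 nt. There was 1 group of 2 biological replicates and no treatment, other tissue or other age. By their biosample names, replicate 1 refers to 3 females and replicate 2 to 1 female, yet both share 1 donor identifier. The labels do not tell whether RNA was pooled, so the SD covers whatever separated these samples and may be partly technical.

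Mir143 and Mir145a are made from neighbouring hairpins of 1 primary transcript that is most active in smooth muscle cells, such as those of arterial walls. The serum response factor and its partner myocardin activate it, and its microRNAs hold smooth muscle cells in the contractile state, in part through repression of the transcription factors Klf4, Klf5 and Elk1. miR-21 is made in many cell types and rises in activated fibroblasts during fibrosis, where known targets include Pdcd4 and Spry1. In a whole muscle, smooth muscle cells lie in the walls of blood vessels and fibroblasts lie in the connective tissue between fibres. Only microRNA genes were counted, so protein-coding markers of these cells could not be checked, and fewer cells of a type cannot be told apart from less RNA per cell.

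The mature sequences of the miR-21 family are shown because they decide which reads can be counted for Mir21a alone. Of the 3 genes, 1 (Mir21a) was matched by symbol in the RefSeq table of mature microRNAs (GRCm38.p6). Sequences run 5′ to 3′, and capitals mark the seed, bases 2 to 8, which pairs with target messages.
miR-21a-5p: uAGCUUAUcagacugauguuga
miR-21a-3p: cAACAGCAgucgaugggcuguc
miR-21b: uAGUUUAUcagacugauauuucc
miR-21c: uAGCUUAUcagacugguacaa
With positions counted from 1 at the 5′ end and miR-21a-5p given first, miR-21b differed at 4 of 22 compared positions, 1 of them in the seed (C4U). miR-21c differed at 5 of 21 positions, the first of them A16G, and kept the seed of miR-21a-5p. In the RefSeq table Mir21c was the only other gene with that seed, and no other gene had the seed of miR-21a-3p. Of the 3 genes only Mir21a was matched in that table, so further genes with these seeds may be missing from it. Each of the 4 mature sequences was found in 1 annotated hairpin only. The counts add the arms of a hairpin together, so the 5p and 3p strands of Mir21a could not be separated.

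All coordinates are mm10. The Mir21a hairpin of 92 nt lies on the minus strand of chromosome 11, from 86584067 to 86584158. It falls inside exon 12 of Vmp1, the gene of an autophagy membrane protein, on the same strand and within the annotated 3′ untranslated region (86583865 to 86585310). Mir143 (63 nt, 61649196 to 61649258) and Mir145a (70 nt, 61647825 to 61647894) lie on the minus strand of chromosome 18, separated by 1301 bp. No other microRNA gene was annotated within 10 kb of any of the 3 genes, apart from Mir143 and Mir145a for each other. In GENCODE M21 no gene overlaps either hairpin of the pair, and the long noncoding gene Carmn ends 366 bp upstream of Mir143. In the RefSeq annotation of GRCm38.p6, Carmn spans 61645878 to 61665538 and contains both hairpins. Bvht, a long noncoding gene of the cardiac lineage, lies on the opposite strand, and its 3′ end is 352 bp beyond Mir145a in GENCODE M21.

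**Figure D1:**
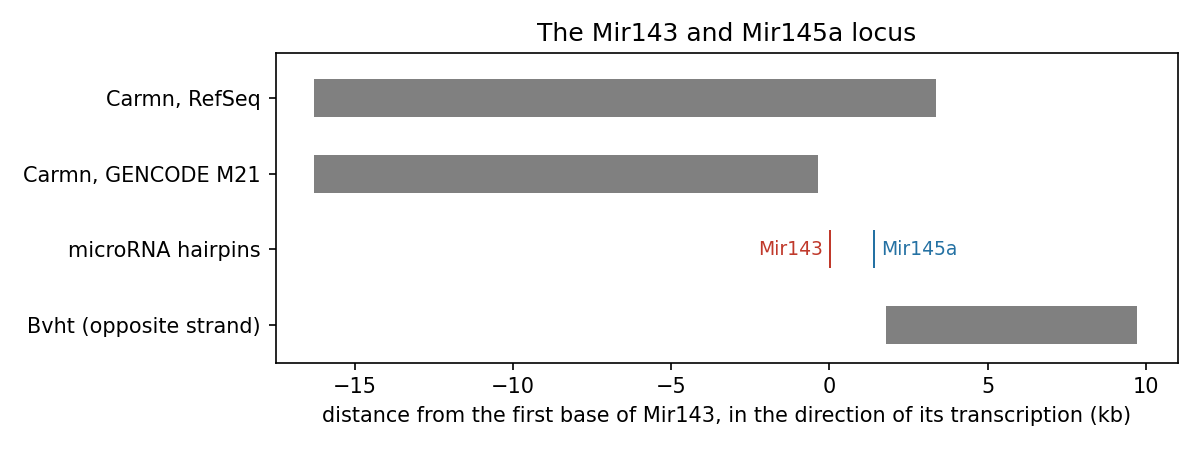
Map of the Mir143 and Mir145a locus, with distance in kb from the first base of Mir143 on the x axis and 1 row per annotation. The RefSeq span of Carmn covers both hairpins, whereas the GENCODE M21 span stops 366 bp before Mir143.

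Replicate 1 had 2672454 reads on microRNA genes and replicate 2 had 4292012, which are 33.4% and 35.4% of the reads in the files. Levels are CPM, reads of a gene per 1000000 reads on all microRNA genes, so 1 read was worth 0.374 CPM in replicate 1 and 0.233 CPM in replicate 2. Intervals are 95% binomial intervals (exact, Clopper-Pearson) or are derived from them, unless another is named, and cover counting error only. Reads that aligned to several places (52.7% and 52.4% of reads) entered no gene's count.

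Mir143 was the most abundant of the 3 genes. It had 52035 reads in replicate 1 and 86500 in replicate 2, or 19471 CPM and 20154 CPM. Its mean was 19812 ± 483 CPM (SD, n = 2), which put it at rank 12 of 2202 genes. All ranks hold among reads that aligned to 1 place. In single replicates its share of reads on microRNA genes was 1.95% (interval 1.93 to 1.96) and 2.02% (2.00 to 2.03).

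Mir21a came second. It had 12770 reads in replicate 1 and 18225 in replicate 2, or 4778 CPM and 4246 CPM. With a mean of 4512 ± 376 CPM (SD, n = 2) it stood at rank 36. Its share was 0.478% (0.470 to 0.486) in replicate 1 and 0.425% (0.418 to 0.431) in replicate 2.

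Mir145a, the neighbour of Mir143, was the lowest of the 3. It had 2024 reads in replicate 1 and 3079 in replicate 2, or 757 CPM and 717 CPM. Its mean was 737 ± 28.3 CPM (SD, n = 2), at rank 81. The order Mir143, Mir21a, Mir145a was the same in both replicates, and no replicate value of 1 gene overlapped those of another. Together the 3 genes held 2.50% (2.48 to 2.52) of reads on microRNA genes in replicate 1 and 2.51% (2.50 to 2.53) in replicate 2.

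All 3 genes reached 1 CPM in both replicates, which 16.7% of the 2202 genes did. Their relatives by name did not. Mir145b, Mir21b and Mir21c had 0 reads in both replicates. Taking 3 reads as the limit, each of them could have had up to 1.12 CPM in replicate 1 and 0.699 CPM in replicate 2. For Mir145b that limit is 0.148% of the Mir145a reads in replicate 1 and 0.0974% in replicate 2. For Mir21b and Mir21c it is 0.0235% and 0.0165% of the Mir21a reads. No read lay on the opposite strand of Mir143, Mir145a or Mir21a.

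Reads lost to other loci were checked by sequence. The longest stretch that the Mir143 hairpin shared with any other of the 2202 hairpins, on either strand, was 11 nt. For Mir145a it was 17 nt, with Mir145b, and for Mir21a 15 nt, with Mir21c. Against other GENCODE M21 transcripts, host genes left out, the longest shared stretch was 16 nt for Mir143, 17 nt for Mir145a and 16 nt for Mir21a. If only exact matches count, reads longer than these stretches would fit 1 place among the annotated transcripts. Matches with mismatches were not searched, and how many the aligner allowed is not known. The rest of the genome was not searched.

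**Figure D2:**
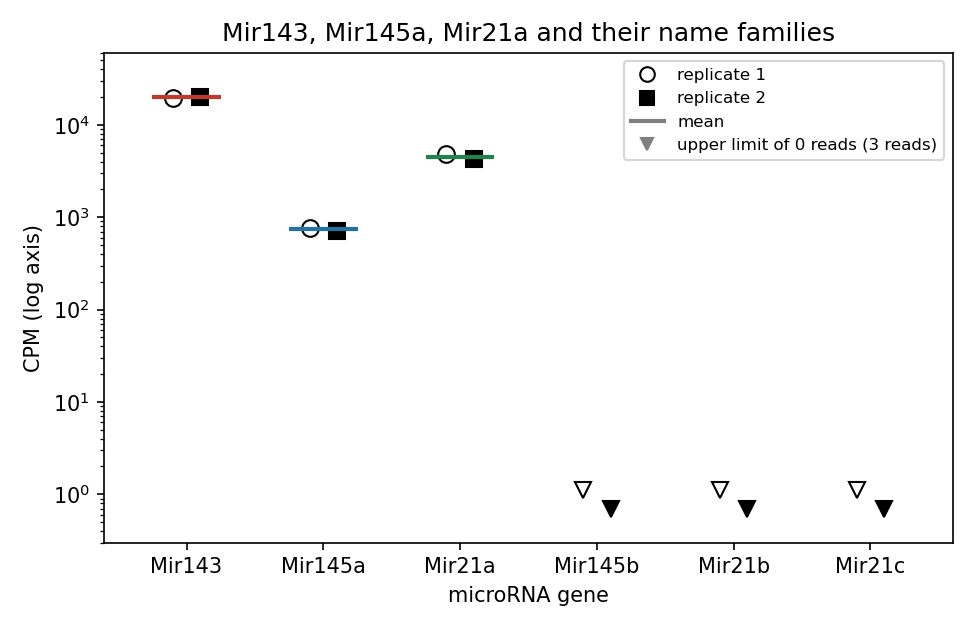
CPM on a log axis for Mir143, Mir145a and Mir21a and for their relatives by name, with open circles for replicate 1, filled squares for replicate 2 and a bar at the mean. Triangles mark the upper limit where a gene had 0 reads. The 3 genes stand between 717 and 20154 CPM, and Mir145b, Mir21b and Mir21c lie below 1.12 CPM.

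Reads of the neighbouring pair were far from equal. Within replicate 1 there were 25.7 Mir143 reads per Mir145a read (interval 24.6 to 26.9), and within replicate 2 there were 28.1 (27.1 to 29.1). These ratios need no scaling between libraries. The ratio in replicate 2 was 1.09 times that in replicate 1, with a 95% interval of 1.03 to 1.16 from the normal approximation to the log odds ratio. Mir143 reads per Mir21a read numbered 4.07 (4.00 to 4.15) in replicate 1 and 4.75 (4.67 to 4.82) in replicate 2, a 1.16-fold difference (1.14 to 1.19). How well each microRNA was ligated and amplified was not measured, so these are ratios of reads, not of molecules.

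Set beside the leading genes of other cell types, chosen for this after their values were seen, Mir143 had 0.164 reads per read of the endothelial Mir126a in replicate 1 and 0.169 in replicate 2. Per read of Mir206, a microRNA of skeletal muscle fibres, it had 0.205 and 0.238. The ratio to Mir126a differed 1.03-fold between the replicates (1.02 to 1.04) and the ratio to Mir206 1.16-fold (1.15 to 1.18), both by the log odds interval.

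**Figure D3:**
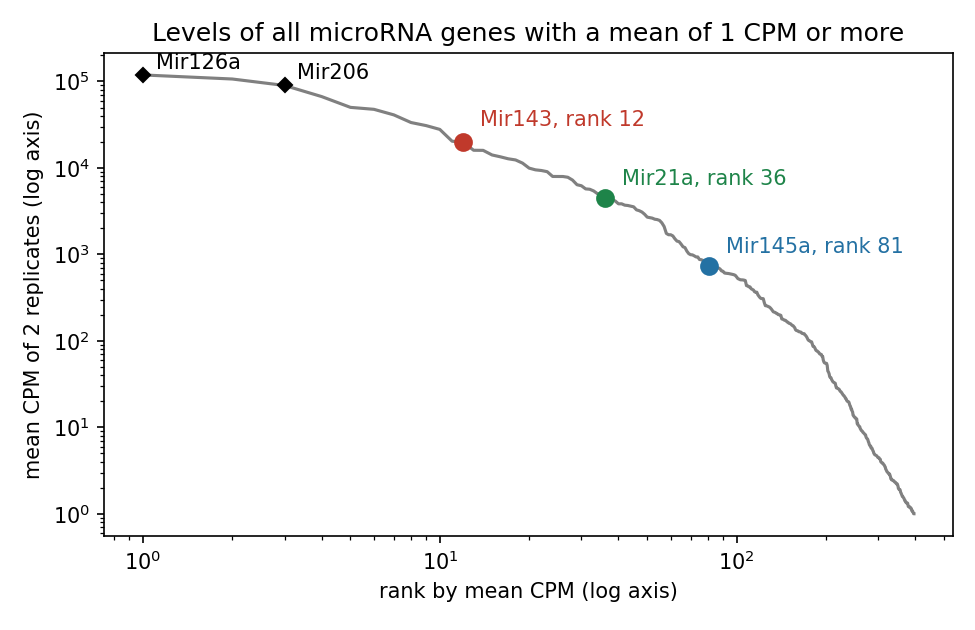
Mean CPM of the 2 replicates against rank, both on log axes, for all genes averaging at least 1 CPM. Mir143 lies at rank 12, Mir21a at rank 36 and Mir145a at rank 81, below the endothelial Mir126a and the skeletal muscle gene Mir206.

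Between the replicates the 3 genes were close. Mir143 was 1.04-fold higher in replicate 2 (1.02 to 1.05). Mir145a stood at 0.947 of its replicate 1 level in replicate 2, and the interval (0.895 to 1.00) just reached 1. With edgeR's TMM factors it excluded 1 (0.928, interval 0.877 to 0.982). Mir21a stood at 0.889 of its replicate 1 level in replicate 2 (0.869 to 0.909), which is 1.13-fold higher in replicate 1 (1.10 to 1.15).

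Differences of this size were common in these libraries. Of the 176 genes averaging at least 100 CPM, 73.9% had an interval that excluded 1, 39.2% with the higher level in replicate 2 and 34.7% with the lower. The median difference was 1.12-fold, and 150 of the 176 genes were farther apart than Mir143, 136 farther than Mir145a and 85 farther than Mir21a. The coefficient of variation was 2.44% for Mir143, 3.83% for Mir145a and 8.34% for Mir21a, against a median of 8.20% over the 176 genes. edgeR's common dispersion corresponded to a biological coefficient of variation of 19.6% over the 255 genes that had at least 10 CPM in each replicate. With 1 library on each side these values compare libraries and carry no p-value.

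Several other lists were also higher in replicate 1, but not all. The neural list was higher in replicate 2, with 0.0385% of reads in replicate 1 and 0.0633% in replicate 2. So were the epithelial list (0.00782% and 0.00932%) and, by less, the smooth muscle list (6.68% and 6.80%). The epithelial ratio of replicate 2 over replicate 1 was 1.19 (1.01 to 1.42), from only 209 and 400 reads. For the smooth muscle list the ratio was 1.02 (1.01 to 1.02). Mir23b held 107985 of that list's 178511 reads in replicate 1 and 179181 of 291864 in replicate 2. The ratio of the smooth muscle list without Mir23b was not computed. The endothelial list held 11.9% in both. The 6 leukocyte genes summed to 0.185% of reads in replicate 1 and 0.135% in replicate 2, 1.38-fold higher in replicate 1 (1.33 to 1.43), with Mir142b at 0 reads and the other 5 at 1 CPM or more in both. Of those 5, Mir146, Mir155, Mir150 and Mir142 had intervals wholly below 1 for replicate 2 over replicate 1, and Mir223 did not (1.03, 0.898 to 1.19). The 3 erythroid genes summed to 0.108% and 0.0723%, 1.49-fold higher in replicate 1 (1.42 to 1.57), with all 3 intervals below 1. The skeletal muscle list was 1.12-fold higher in replicate 1 (1.12 to 1.13), and nearly all its counted reads came from Mir206. Of its 4 genes averaging at least 100 CPM, Mir206 and Mir1a-2 had intervals wholly below 1 for replicate 2 over replicate 1. Mir499 (1.31, 1.19 to 1.45) and Mir208b (1.83, 1.56 to 2.14) had intervals wholly above 1. Of the 176 genes, 34.7% were lower in replicate 2 by the same rule and 39.2% higher. miR-21 is also made in leukocytes, and the part of blood cells or muscle fibres in the Mir21a difference was not tested.

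**Figure D4:**
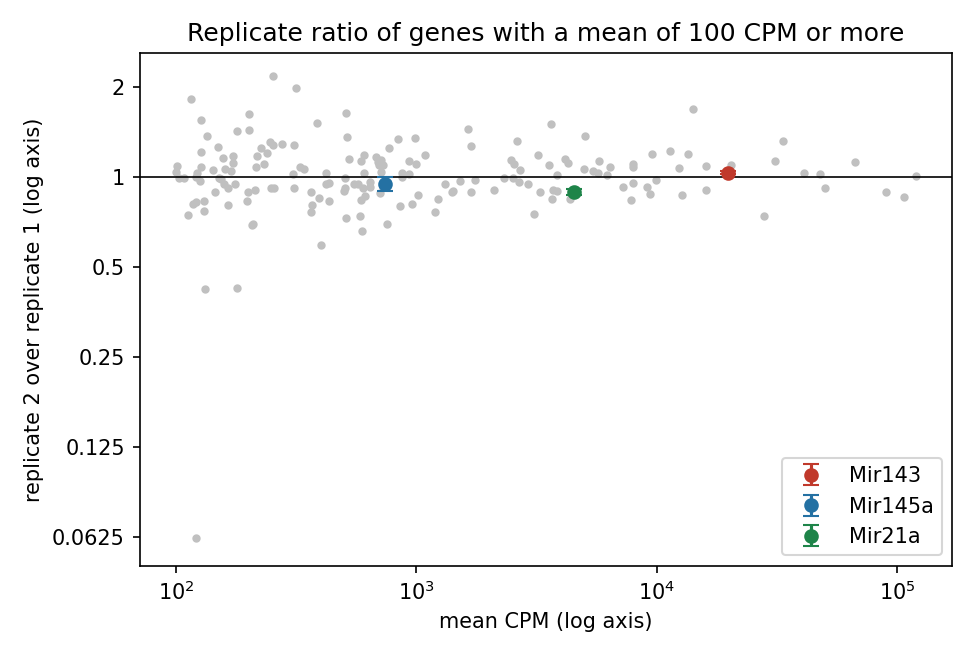
Ratio of replicate 2 over replicate 1 against mean CPM, both on log axes, for the 176 genes averaging at least 100 CPM. Coloured points with 95% counting intervals are Mir143 (1.04), Mir145a (0.947) and Mir21a (0.889), and grey points are all other genes, among which the 3 lie near the line at 1.

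In the order of mean levels the genes next to each member did not all differ from it beyond their spread. Mir26b, of a Ctdsp1 intron, stood at 20377 ± 1379 CPM just above Mir143, and its replicate values overlapped those of Mir143. Mir22 above it (27906 ± 5948 CPM) and Mir379 (16014 ± 986 CPM) and Mirlet7b (15968 ± 1159 CPM) below it did not overlap with Mir143. Around Mir21a, Mir100 (5031 ± 1120 CPM), Mir27b (4341 ± 509 CPM) and Mir214 (4276 ± 328 CPM) overlapped with it, whereas Mir337 (4957 ± 213 CPM) did not. Mir214, a mesenchymal microRNA made from the Dnm3os transcript, stood below Mir21a in replicate 1 (1.18 Mir21a reads per Mir214 read, 1.15 to 1.21) and above it in replicate 2 (0.942, 0.923 to 0.961). Around Mir145a, Mir485, Mir497, Mir92-1 and Mir298 lay between 711 and 771 CPM and all overlapped with it.

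Likeness of the 2-replicate pattern was measured as the distance in log2 CPM over both libraries, among genes averaging at least 1000 CPM. The genes nearest Mir143 were Mir26b (distance 0.08), Mir379 (0.44) and Mirlet7b (0.46). Those nearest Mir21a were Mir27b (0.10), Mir214 (0.26) and Mir337 (0.27). Those nearest Mir145a were Mir15b (0.66), Mir673 (0.83) and Mir93 (1.00), and none of them remained when genes from 100 CPM were searched, where Mir140 (0.11), Mir1193 (0.12) and Mir92-1 (0.15) were nearest. Over 2 libraries this mostly restates similar levels.

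Among 18 microRNA genes listed as regulators of smooth muscle, 16 reached 1 CPM in both replicates, against 16.7% of all 2202 genes. The list was chosen with earlier results of these data known. The list took 6.68% of the reads on microRNA genes in replicate 1 and 6.80% in replicate 2. Mir143 made up 29.1% and 29.6% of the list's reads, Mir21a 7.15% and 6.24%, and Mir145a 1.13% and 1.05%. Mir23b, whose cluster is active in vessels and in muscle, stood above all 3 at 40407 and 41748 CPM. Mir221 and Mir222, a pair that favours proliferation of smooth muscle cells, had 89.8 and 73.2 CPM and 11.6 and 15.6 CPM in replicates 1 and 2.

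Mir1a, Mir133a, Mir24 and Mir26a each have a pair of loci with the same mature microRNA on this list. A read that fits both loci enters no count, so their counts are lower bounds. The shares of the smooth muscle list therefore hold only for reads that fit 1 locus. Of the 8 listed genes averaging at least 100 CPM, Mir23b, Mir143 and Mir204 had intervals wholly above 1 for replicate 2 over replicate 1. Mir21a, Mir146, Mir1a-2 and Mir24-2 had intervals wholly below 1, and that of Mir145a included 1. Over the 176 genes averaging at least 100 CPM, 39.2% had intervals wholly above 1 and 34.7% wholly below. The 8 genes had a median log2 ratio of -0.12, against 0.01 over the 176 genes. The lists overlap. Of the 8, Mir146 is also on the leukocyte list, Mir1a-2 on that of skeletal muscle and Mir21a on that of fibroblast and matrix.

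The fibroblast and matrix list, chosen in the same way, took 5.23% of the reads on microRNA genes in replicate 1 and 4.48% in replicate 2. Of its 16 genes, 13 reached 1 CPM in both replicates, against 16.7% of all 2202 genes. Mir21a ranked 3 on it and made up 9.13% and 9.48% of its reads. Above it stood Mir22 (32112 CPM in replicate 1 and 23701 CPM in replicate 2) and Mir10b (7646 and 8273 CPM), a gene of the Hoxd cluster. Mir214 followed at 4045 and 4508 CPM.

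The list total was lower in replicate 2, with a ratio of 0.856 (0.850 to 0.862), and this rested on Mir22. Without Mir22 the list was higher in replicate 2, with a ratio of 1.04 (1.03 to 1.06). Mir29a, of a family that represses collagen genes, had 432 and 411 CPM in replicates 1 and 2, and Mir29c 143 and 119 CPM. The Mir29b and Mir199a copies on the list share mature sequences, so their counts are lower bounds. Shares of this list therefore hold only for reads that fit 1 locus. Mir152 had 489 and 562 CPM and Mir34a, a target of p53, 200.2 and 250.2 CPM. Of the 9 listed genes averaging at least 100 CPM, 5 had intervals wholly above 1 for replicate 2 over replicate 1 (Mir10b, Mir214, Mir10a, Mir152 and Mir34a). The 3 wholly below 1 were Mir21a, Mir22 and Mir29c. Over the 176 genes averaging at least 100 CPM, 39.2% had intervals wholly above 1 and 34.7% wholly below. The median log2 ratio of the 9 was 0.11, against 0.01 over the 176 genes.

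**Figure D5:**
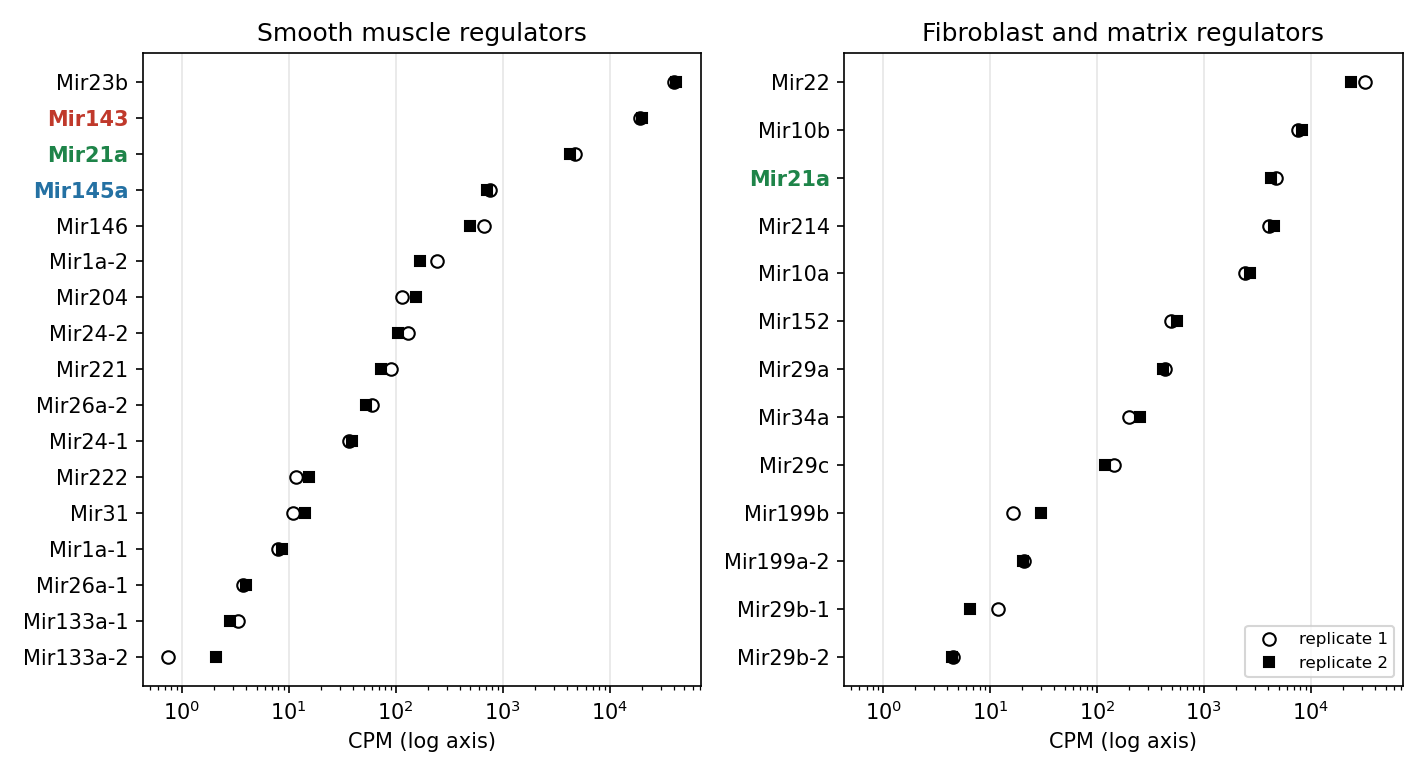
CPM on a log axis of the genes with reads in both replicates on the smooth muscle list (left) and the fibroblast and matrix list (right), with open circles for replicate 1 and filled squares for replicate 2. On the left only Mir23b lies above Mir143, Mir21a and Mir145a, and on the right Mir21a lies below Mir22 and Mir10b.

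Lists for other cell types placed the 3 genes among the tissue's other microRNAs. The skeletal muscle list held 9.57% and 8.53% of reads in replicates 1 and 2, nearly all from Mir206 among the reads counted (95105 and 84694 CPM), followed by Mir499, Mir1a-2 and Mir208b. Mir1a-1, Mir1a-2, Mir133a-1 and Mir133a-2 are 4 of its 8 genes, so its share and the part of Mir206 in it hold only for reads that fit 1 locus. The endothelial list held 11.9% in both replicates, from Mir126a, while Mir126b had 2 reads and 1 read. The leukocyte list was led by Mir146, Mir155, Mir150 and Mir142 (means of 582, 401, 366 and 130 CPM) and the erythroid list by Mir486, Mir451a and Mir144 (591, 179 and 132 CPM). The neural list held 0.0385% and 0.0633%, from Mir338, with 5 of its 7 genes at 0 reads. Those 5 are copies of Mir9 and Mir124a, whose reads may fit several loci and then enter no count, so their zeros do not bound the level of these microRNAs. The epithelial list held 0.00782% and 0.00932%, led by Mir203, Mir205, Mir200c and Mir200b. By mean CPM of the counted reads each of the 3 genes stood above every listed leukocyte, erythroid, neural and epithelial gene, but this order is not settled for Mir9, Mir124a and Mir486, whose counts are lower bounds. Mir486 overlaps Mir3107, which is annotated on the other strand, and the hairpins of this pair share a stretch of 22 nt.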

How the data were processed

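The deposited values are raw counts of reads per microRNA gene, in 3 columns per library, made on mm10 with GENCODE M21 per the file headers of the deposit. No source used here names the aligner or the counter. Column order was read as the layout of STAR's gene counts, and column 3, taken as reads on the gene's strand, was used. The 4 summary lines that name no gene (66.6% of the reads of replicate 1, 64.6% of those of replicate 2) were left out of the totals. All 2202 identifiers matched GENCODE M21. Counts were divided by the total over gene rows to give CPM.

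The single group allowed no test between groups. The spread was estimated with edgeR 4.0.16 (R 4.3.3), and alternative scalings used edgeR's TMM factors and DESeq2 1.42.0. Other steps used Python 3.11.15, pandas 2.3.3 and scipy 1.17.1. The dispersion and interval steps were tested on simulated data.

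The genes and the 8 lists were chosen with earlier results of these data known. The text names the 3 genes, relatives by name or seed, the 2 genes on each side in the order of means, the 3 nearest by log2 distance, and the 4 most abundant genes of each list. Other list genes and the comparisons with Mir126a, Mir206 and Mir214 were added after their values were seen.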

Additional observations from a re-analysis of the deposited data

Results flagged for a closer look

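Multiply aligned reads were 52.7% of the reads of replicate 1 and 52.4% of those of replicate 2. They lie outside the counts per gene and far above the limit that a count of 0 allows. The deposited counts do not place them on any gene, Mir143, Mir145a and Mir21a included.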

How the results depend on the processing

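No paired analysis was possible because there was 1 group. Levels moved with the denominator. With the unstranded column they were 26652 CPM for Mir143, 992 for Mir145a, 6075 for Mir21a and 33720 for the 3 together. Per 1000000 reads of the whole library they were 6815, 253, 1549 and 8618. Without the 2 most abundant genes in the denominator they were 25587, 953, 5832 and 32372. Each replicate alone gave 19471 to 20154 for Mir143, 717 to 757 for Mir145a, 4246 to 4778 for Mir21a and 25007 to 25117 together. TMM and DESeq2 factors moved no mean level beyond its SD and shifted every log2 ratio by -0.03 and -0.02. Ratios of replicate 2 over replicate 1 also depended on the setting. With the unstranded column they were 1.01 for Mir143, 0.868 for Mir21a and 0.981 for the 3 together (1.00 in the main setting). Over all reads they were 1.10, 0.941 and 1.06, and 1.00 for Mir145a. TMM gave 1.01 for Mir143 and 0.984 together, DESeq2 1.02 and 0.992, and leaving out the 2 most abundant genes, chosen after seeing the data, 1.01 and 0.984. The Mir145a interval excluded 1 with the unstranded column (0.926), TMM (0.928), DESeq2 (0.935) and without those 2 genes (0.928). Mir143 reads per Mir145a read ranged from 25.7 to 28.1 and per Mir21a read from 4.07 to 4.75 over single replicates. Ranks became 10, 71 and 31 for Mir143, Mir145a and Mir21a with the unstranded column, and over single replicates ran from 11 to 12, 79 to 86 and 35 to 39. Summing genes that share a mature sequence gave 12, 83 and 36. This sum used only reads that fit 1 place, so it cannot restore reads that fit several copies. It does not show how the ranks would stand with those reads. The fibroblast and matrix list without Mir22, chosen after seeing the data, had a ratio of 1.04, against 0.856 with it. At 1 read in either replicate the endothelial and neural lists had 2 genes each in place of 1. The unstranded column gave 0 neural and 1 erythroid gene, against 1 and 3, and 10 CPM gave 1 epithelial gene against 5. Of the 3 genes nearest Mir145a, 0 remained when genes from 100 CPM were searched. Denominators act on every gene alike. The 3 genes had the same reads in the unstranded column as in column 3, so their levels there changed only through the denominator. The causes of the other changes were not tested. With 2 libraries, no difference between animals could be estimated apart from the libraries.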
